A study of Homo sapiens with 8 samples.

Results

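In all, 3 flask-grown libraries of M14A, an edited derivative of the hepatic line HepaRG, were compared with 3 flask-grown libraries of HepaRG itself, so the comparison used 6 of the 8 RNA sequencing libraries of the study. HepaRG is a human liver progenitor line from which both hepatocyte-like and cholangiocyte-like cells can be obtained. The HepaRG libraries (replicates 1 to 3) carry the genotype label WT, and the M14A libraries (replicates 1 to 3) the genotype label FoxM1/HNF4A transfected, on the same hepaRG cell line background. Both were kept as planar cultures, detached from flasks, pelleted and lysed, with no other treatment or time named in the labels. Whether M14A is a single clone, which promoter drives a transfected gene, and whether HepaRG carried a control vector are facts not given in the sources at hand. The other 2 libraries are M14A cells taken after printing in a bioink, and they enter only where named. Expression was given for 58735 genes as FPKM, fragments per kilobase of exon divided by a denominator for each library. The 13900 genes that reached 1 FPKM in 2 or more of the 6 libraries were tested.

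HNF4A is a nuclear receptor that binds promoters and enhancers of hepatocyte genes, and it works in a mutually reinforcing circuit with other liver-enriched factors, the FOXA factors among them, to hold hepatocyte identity. Hepatocytes secrete most plasma proteins, and their output of acute phase proteins and complement is raised by inflammatory cytokines through NF-kappaB, C/EBP and STAT factors. FOXM1 is a forkhead factor that drives genes of the G2 and M phases. Loss of mesenchymal genes and gain of tight junction genes accompany epithelial polarity in liver progenitors.

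The depth recovered from the values was 15632154 to 19148262 reads per library, and mitochondrially encoded genes took 6.91 to 7.25% of reads in HepaRG and 8.21 to 9.72% in M14A. M14A library 1 stood apart from the other two of its group. Across genes its Pearson correlation with M14A libraries 2 and 3 was 0.956 and 0.947, against 0.988 between these and 0.989 to 0.990 among the HepaRG libraries. Its value is the first of the 3 where M14A is given library by library. Where leaving out 1 library moved a count of a gene list by over 1.5 times, brackets give the counts without M14A library 1 and the range over the fits without one of the other 5 libraries. The labels do not say whether replicates were separate cultures, so a p-value speaks only to the spread among these libraries, which may be technical. Levels written with ± are the mean and SD of n = 3 libraries. Log2 fold changes are M14A minus HepaRG on the log2(FPKM + 1) scale, which understates changes of low genes, and adjusted p-values are those of limma with Benjamini-Hochberg adjustment over all 13900 genes. Below, "rose" and "fell" describe genes with an adjusted p under 0.05, and such genes are called. A gene can pass the level filter through one line alone, which all but fixes its direction: in 784 tested genes every HepaRG library was under 1 FPKM and 606 of these rose, and in 761 every M14A library was and 561 fell. Counts of rises and falls in a list include such genes. They are to be read beside the shares over all genes tested, 15.3% higher and 14% lower. Counts without M14A library 1 are to be read beside that fit over all 13900 genes, in which 3484 rose and 4452 fell.

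Of 13900 genes, 2120 (15.3%) were higher and 1950 (14%) lower in M14A, which together make 29.3% of genes called, and 943 of the higher and 588 of the lower genes changed at least 2-fold. Over all genes the median log2 fold change was -0.05. At equal FPKM totals the same test gave 2001 higher and 3257 lower genes, so that higher genes made 38.1% of calls in place of 52.1%, and the median of all genes moved to -0.21. Without M14A library 1, the counts were 3484 higher and 4452 lower. Of the 4070 genes called with all libraries, 4062 were also called without that library, and none of these changed sign.

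**Figure D1:**
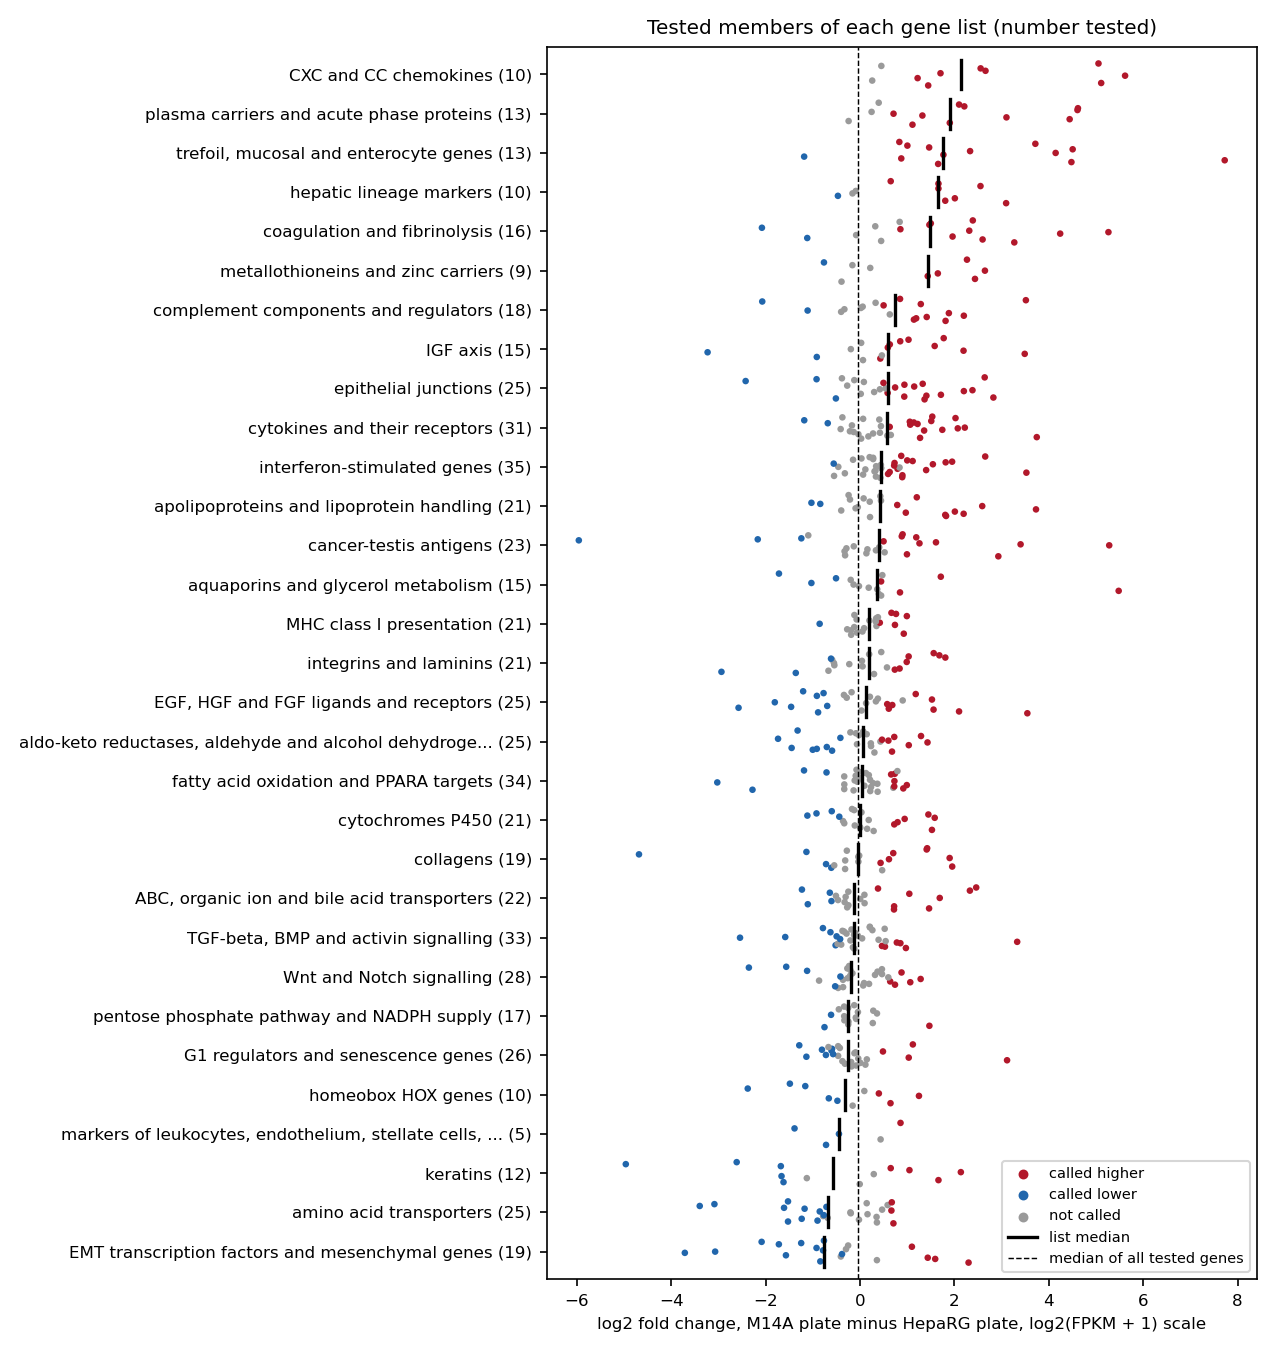
Log2 fold change of every tested member of 31 gene lists (horizontal axis, M14A minus HepaRG, log2(FPKM + 1) scale), one row per list with the number tested in brackets; points are genes coloured by call, black bars list medians, and the dashed line the median of all tested genes at -0.05. The median of the chemokines is 2.13 and that of the EMT factors and mesenchymal genes -0.76.

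Stretches of promoter sequence are shown for 6 genes with values below, because these hold a textbook motif of a factor that acts on liver or inflammatory genes. Each is the 160 bases before the start site from RefSeq (GRCh38.p14), 5′ to 3′ on the strand of the gene, with the motif match in capitals. The first 4 hold a kappaB motif, GGGANTTTC. CXCL1 lies at chr4:73869233-73869392 on the plus strand, IL32 at chr16:3065243-3065402 on the plus strand, TAP1 at chr6:32853705-32853864 on the minus strand, and FGF21 at chr19:48755364-48755523 on the plus strand. The other 2 hold an HNF1 motif, GTTAATNAT, in FGA at chr4:154590743-154590902 on the minus strand, where it reads on the opposite strand of the gene, and in ALB at chr4:73404127-73404286 on the plus strand.
CXCL1: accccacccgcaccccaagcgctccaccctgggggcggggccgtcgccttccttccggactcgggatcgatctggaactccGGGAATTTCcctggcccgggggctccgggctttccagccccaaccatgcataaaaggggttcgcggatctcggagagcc
IL32: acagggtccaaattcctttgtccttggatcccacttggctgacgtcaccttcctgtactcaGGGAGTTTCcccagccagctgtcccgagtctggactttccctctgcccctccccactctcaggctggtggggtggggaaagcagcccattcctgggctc
TAP1: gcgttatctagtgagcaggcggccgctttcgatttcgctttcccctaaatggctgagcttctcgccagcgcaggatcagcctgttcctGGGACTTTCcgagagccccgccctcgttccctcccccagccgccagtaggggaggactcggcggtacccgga
FGF21: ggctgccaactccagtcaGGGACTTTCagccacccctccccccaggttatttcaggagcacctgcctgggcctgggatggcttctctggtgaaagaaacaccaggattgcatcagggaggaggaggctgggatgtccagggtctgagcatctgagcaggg
FGA: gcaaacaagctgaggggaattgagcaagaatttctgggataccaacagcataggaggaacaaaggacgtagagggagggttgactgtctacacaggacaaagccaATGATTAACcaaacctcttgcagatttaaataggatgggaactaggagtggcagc
ALB: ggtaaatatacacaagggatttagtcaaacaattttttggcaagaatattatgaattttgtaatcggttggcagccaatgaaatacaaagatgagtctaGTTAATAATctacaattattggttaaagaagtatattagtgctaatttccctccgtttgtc
The first base of the match stands 79 bases before the start site in CXCL1, 99 in IL32, 72 in TAP1, 142 in FGF21, 55 in FGA and 61 in ALB, and no match overlaps one of the other motifs searched. Of these genes 5 rose and FGF21 fell, so the same letters stood before genes of either direction. Both strands of the 300 bases around the start site (250 before, 50 after) were searched in the 35116 promoters of the table. The kappaB motif was in 1.28% of all promoters, in 2.80% (15 of 535) of coding genes that rose at least 2-fold, in 1.23% (4 of 324) of those that fell at least 2-fold and in 1.11% (72 of 6467) of those not called. The HNF1 motif was in 0.792% of all promoters, and in 1.68% (9 of 535), 0.309% (1 of 324) and 0.247% (16 of 6467) of the same 3 sets. A strict form of the HNF4 site, CAAAGTCCA, was in 3 of 535, 0 of 324 and 16 of 6467 promoters, and 0.384% of all. The C/EBP palindrome TTGCGCAA was in 1, 0 and 14 promoters of these sets, and in 0.151% of all. The antioxidant element of NRF2, TGACNNNGC, was in 14.4%, 13.3% and 15.4%, against 13.3% of all promoters. The TATA box, TATAAA, stood in 11.03% of promoters of genes that rose and 9.88% of those that fell at least 2-fold, against 4.86% of genes not called and 11.5% of all promoters. A match is a run of letters and not a bound site, and no binding was measured.

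Of the factors named in the genotype label, HNF4A stood at 5.67, 6.24 and 6.499 FPKM in HepaRG and at 37.9, 43.1 and 41.7 FPKM in M14A, without overlap (log2 change of 2.55 with SE 0.12, adjusted p = 1.1e-05). FOXM1 stood at 12.9, 13.7 and 14.9 FPKM in HepaRG and 13.004, 10.4 and 8.92 FPKM in M14A, where library 1 lay inside the range of HepaRG and the other two below it (log2 change of -0.34 with SE 0.16, adjusted p = 0.14). Reads of a transfected coding sequence count only where they fall in annotated exons.

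Markers of the hepatic lineage were mostly higher in M14A. Of 16 listed markers 10 were tested, 7 rose and 1 fell (7 rises and 3 falls without M14A library 1, 6 to 7 and 0 without another), with a median log2 fold change of 1.66 against -0.05 over all genes. Beside HNF4A the rises included those of albumin (ALB), the apolipoproteins APOB and APOA1, and the simple epithelial keratins KRT8 and KRT18. The fall in the fit of all 6 libraries was that of the pioneer factor FOXA1, from 2.36 ± 0.174 to 1.43 ± 0.186 FPKM, while FOXA2 (10.4 ± 0.132 to 9.85 ± 4.76 FPKM) and FOXA3 (4.21 ± 0.733 to 4.03 ± 1.66 FPKM) did not pass the test. ALB stood at 2.42, 2.01 and 2.14 FPKM in HepaRG and 29.1, 23.1 and 26.8 FPKM in M14A (log2 change of 3.10 with SE 0.13, adjusted p = 7.0e-06). These are low levels beside SAA1 or SERPINA1, described below. The 6 markers not tested reached at most 1.67 FPKM, among them AFP, TTR, PROX1 and GPC3, with DLK1 at 0 in all 6 libraries. Most markers of other cell types were near the floor, with the stellate cell marker DES as an exception. Of 25 genes of leukocytes, endothelium, stellate cells and erythroid cells, 20 were not tested and reached at most 1.01 FPKM, and 5 of them, with CDH5, HBA1 and HBA2 among these, were at 0 in all 6 libraries. PTPRC reached 0.0208 FPKM and VWF 0.0368 FPKM. Of the 5 tested, which are all markers of stellate cells or fibroblasts, 3 fell and 1 rose (1 rise and 3 falls without M14A library 1, 0 to 1 and 1 to 3 without another). PDGFRB, COL1A1 and LRAT fell, from 1.805 ± 0.192 to 0.0698 ± 0.019001, 1.91 ± 0.0999 to 0.785 ± 0.332 and 1.19 ± 0.0666 to 0.61996 ± 0.2304 FPKM, and RELN rose from 0.229 ± 0.0259 to 1.28 ± 0.553 FPKM. DES, a muscle-type filament protein, stood at 29.9, 28.001 and 32.2 FPKM in HepaRG and 56.4, 36.8 and 32.9 FPKM in M14A and did not pass the test.

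M14A carried more RNA of many proteins that hepatocytes secrete into plasma. Of 13 tested plasma carriers and acute phase proteins 10 rose and 0 fell (median 1.90, with 11 rises and 1 fall without M14A library 1, 8 to 10 and 0 without another). Of 16 coagulation and fibrinolysis genes 10 rose and 2 fell (median 1.48), and of 18 complement genes 10 rose and 2 fell (median 0.74). Of 21 apolipoproteins and lipoprotein handling genes 9 rose and 2 fell (median 0.43, or 0.25 without M14A library 1, with 11 rises and 6 falls without M14A library 1, 8 to 10 and 2 without another). Against a background of 15.3% of genes higher and 14% lower, higher members made up 76.9%, 62.5%, 55.6% and 42.9% of the tested members. The lists held 31, 33, 35 and 33 genes, of which 18, 17, 17 and 12 were not tested. Of the rises, 2, 4, 2 and 5 were genes under 1 FPKM in every HepaRG library.

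Serum amyloid A1 (SAA1), an apolipoprotein of the acute phase, stood at 39.6, 39.1 and 41.9 FPKM in HepaRG and 1040.4, 1062 and 914 FPKM in M14A (log2 change of 4.61 with SE 0.12, adjusted p = 8.5e-07). Within each group its values lay close together and the groups were far apart, and SAA1 moved from rank 814 to rank 8 by mean FPKM among nuclear protein-coding genes. Its close copy SAA2 went from 0.945 ± 0.0939 to 46.7 ± 2.65 FPKM, and reads of such copies can be shared in counting. The pentraxin APCS, which coats amyloid and microbial surfaces, stood at 0.8602, 0.564 and 0.9799 FPKM in HepaRG and 109, 83.9 and 82.1 FPKM in M14A (log2 change of 5.68 with SE 0.16, adjusted p = 1.1e-06). LBP, which presents bacterial lipopolysaccharide to CD14, rose from 2.901 ± 0.162 to 83.8 ± 4.58 FPKM, and the leucine-rich glycoprotein LRG1 from 3.49 ± 0.201 to 39.2 ± 15.1 FPKM. SERPINA1, the inhibitor of neutrophil elastase, stood at 8.75, 9.49 and 10.4 FPKM in HepaRG and 459, 281 and 262 FPKM in M14A, where library 1 was the highest.

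Fibrinogen is made of 3 kinds of chain. FGB stood at 2.37, 2.15 and 1.82 FPKM in HepaRG and 90.3, 130.2 and 141 FPKM in M14A (log2 change of 5.26 with SE 0.19, adjusted p = 3.5e-06), and FGA at 2.75, 3.16 and 3.09 FPKM and 116, 59.2 and 60.1 FPKM (log2 change of 4.24 with SE 0.26, adjusted p = 3.2e-05). Library 1 was the lowest of M14A for FGB and the highest for FGA. CPB2, a carboxypeptidase that slows fibrinolysis, rose from 0.237 ± 0.0806 to 11.01 ± 1.93 FPKM, and prothrombin (F2) from 0.4799 ± 0.169 to 8.0001 ± 1.58 FPKM. The falls were those of protein C (PROC), an anticoagulant protease, and tissue factor (F3), which starts clotting.

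Among complement genes SERPING1, the C1 inhibitor, stood at 1.33, 1.49 and 1.33 FPKM in HepaRG and 29.6, 26.2 and 23.03 FPKM in M14A (log2 change of 3.51 with SE 0.13, adjusted p = 3.8e-06). The central component C3 was already abundant and rose from 95.5 ± 5.23 to 443 ± 41.1 FPKM, and C4BPB, the beta chain of C4b-binding protein, from 1.28 ± 0.155 to 7.39 ± 0.467 FPKM. The falls were those of the secreted chaperone clusterin (CLU), from 7.64 ± 0.312 to 1.0999 ± 0.563 FPKM, and of the C5a receptor C5AR1.

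Of lipoprotein genes, APOC3, which slows clearance of triglyceride-rich particles, stood at 0.491, 0.603 and 0.386 FPKM in HepaRG and 12.8, 22.6 and 22.6 FPKM in M14A (log2 change of 3.73 with SE 0.22, adjusted p = 2.9e-05). APOB, the structural protein of very low density lipoprotein, stood at 10.3, 12.4 and 10.97 FPKM in HepaRG and 23.4, 72.7 and 65.1 FPKM in M14A (log2 change of 2.01 with SE 0.39, adjusted p = 0.0079). All M14A libraries were above all HepaRG libraries, and library 1 was the lowest of M14A. APOB is encoded by a long RNA, and the values of library 1 for long RNAs are described below. Without library 1 the log2 fold change of APOB was 2.51. APOA4 rose from 0.0425 ± 0.0144 to 3.84 ± 0.945 FPKM and APOA1 from 0.238 ± 0.124 to 3.38 ± 0.995 FPKM, and another gene shares 43.1% of the exon bases of APOA4. The falls were those of APOL3 and APOL6, while APOL1, the trypanolytic factor of serum, rose from 14.5 ± 0.242 to 94.01 ± 22.98 FPKM and APOL2 rose as well. These 4 genes are neighbours on chromosome 22.

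**Figure D2:**
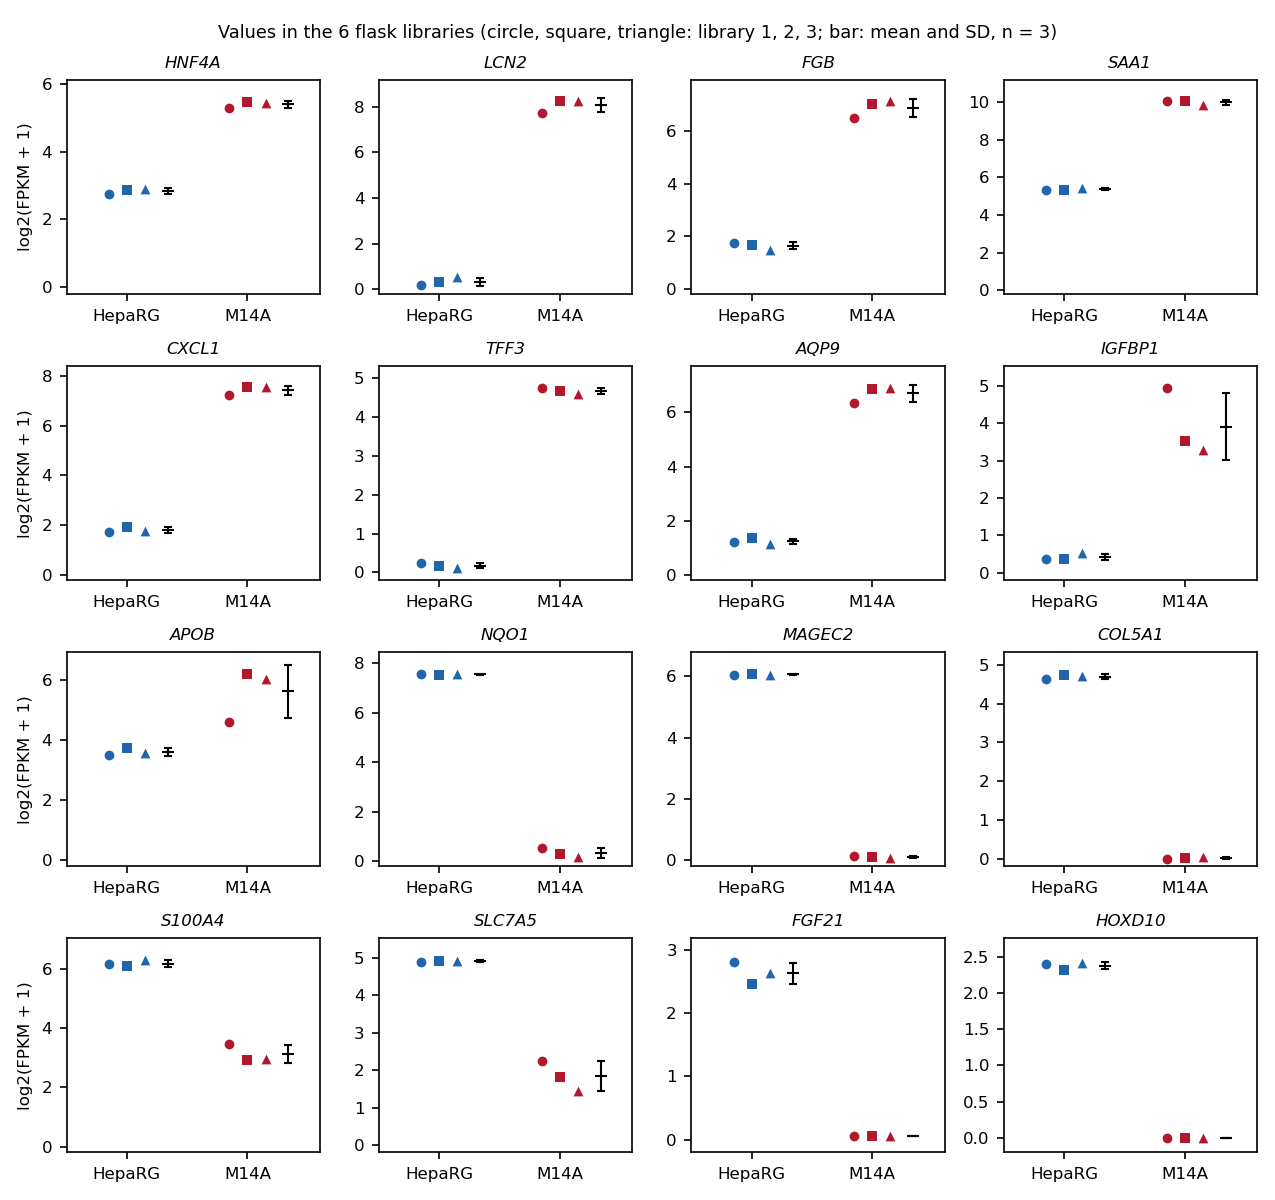
log2(FPKM + 1) of 16 genes (one panel each, vertical axis) in the 3 HepaRG and 3 M14A flask libraries, with symbols for library 1, 2 and 3 and the mean ± SD beside them. The panels show named genes, most of them selected as large called changes. The groups do not overlap in any panel, which follows in part from that selection. M14A library 1 lies apart from libraries 2 and 3 for IGFBP1 and APOB.

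Most tested chemokine genes rose, and cytokine and receptor genes were higher in part. Of 10 tested chemokines 8 rose and 0 fell (median 2.13), 3 of the rises from under 1 FPKM in every HepaRG library. The summed level of the 10 went from 16.1 to 18.1 FPKM in HepaRG to 334 to 439 FPKM in M14A. Of the 10, 4 were tested through M14A alone, so the filter shaped this sum too. Of 31 cytokines and receptors 14 rose and 2 fell (median 0.58, with 19 rises and 5 falls without M14A library 1, 13 to 16 and 1 to 2 without another). In 5 of the 14 rises every HepaRG library was under 1 FPKM. With all 6 libraries the falls were those of LIFR, the receptor of leukaemia inhibitory factor, and TNFRSF11B, the decoy receptor osteoprotegerin. CXCL1, a neutrophil attractant, stood at 2.34, 2.82 and 2.395 FPKM in HepaRG and 148, 184 and 184 FPKM in M14A (log2 change of 5.62 with SE 0.14, adjusted p = 7.0e-07). CXCL8 (interleukin 8), which attracts the same cells, stood at 1.92, 1.55 and 1.51 FPKM and 56.2, 99.96 and 117 FPKM (log2 change of 5.05 with SE 0.26, adjusted p = 1.6e-05). CCL20, a ligand for CCR6 on lymphocytes and dendritic cells, stood at 0.633, 0.546 and 0.869 FPKM and 47.2, 61.1 and 64.01 FPKM (log2 change of 5.11 with SE 0.16, adjusted p = 1.7e-06). M14A library 1 was the lowest of its group for each of these 3 genes and still far above HepaRG. The membrane-bound chemokine CXCL16 rose from 7.09 ± 0.733 to 50.02 ± 3.92 FPKM. CSF3, the granulocyte colony-stimulating factor, stood at 0, 0 and 0.043 FPKM in HepaRG (2 reads in all) and at 5.95, 18.7 and 17.3 FPKM in M14A (log2 change of 3.74 with SE 0.37, adjusted p = 3.1e-04). IL32, an inflammatory cytokine of human cells, rose from 64.97 ± 5.37 to 310.1 ± 67.2 FPKM. Of the receptors, IL22RA1, through which interleukin 22 acts on epithelia, rose from 0.9399 ± 0.185 to 7.14 ± 0.489 FPKM, and the tumour necrosis factor receptor TNFRSF1B from 1.77 ± 0.1703 to 10.4 ± 2.13 FPKM.

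Interferon-stimulated genes were partly higher. Of 35 tested 16 rose and 1 fell, LGALS3BP (median 0.45, with 29 rises and 1 fall without M14A library 1, 11 to 14 and 0 without another). IFI27, a mitochondrial protein of the interferon response, stood at 4.15, 3.65 and 3.85 FPKM in HepaRG and 76.2, 45.4 and 48.4 FPKM in M14A (log2 change of 3.52 with SE 0.20, adjusted p = 2.7e-05). TRIM22, an antiviral ubiquitin ligase, rose from 0.9996 ± 0.0867 to 11.9 ± 3.498 FPKM, and the 2-5A synthetases OAS2 and OAS1 from 1.701 ± 0.3003 to 9.41 ± 0.665 FPKM and 0.973 ± 0.1401 to 5.95 ± 0.691 FPKM. Genes of MHC class I presentation differed less: of 21 tested 6 rose and 1 fell (median 0.20, or 0.00 at equal FPKM totals, with 11 rises and 6 falls without M14A library 1, 2 to 6 and 1 without another). Of the 6 rises, 2 were left without HepaRG library 1 or 2 and 3 without HepaRG library 3. TAP1, the peptide transporter, stood at 19.5, 19.2 and 19.5 FPKM in HepaRG and 56.8, 34.2 and 31.8 FPKM in M14A (log2 change of 0.99 with SE 0.22, adjusted p = 0.013). TAPBP, which loads peptide onto class I, rose from 46.02 ± 4.44 to 79.7 ± 17.6 FPKM, and calreticulin (CALR), a chaperone of the loading complex, from 255 ± 7.56 to 490.2 ± 93.9 FPKM. NLRC5, the transactivator of class I genes, was the member that fell, from 3.601 ± 0.256 to 1.58 ± 0.5599 FPKM.

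Genes of mucosal and enterocyte surfaces, which an epithelium of gut type makes, were mostly near the floor in HepaRG. Of 44 listed 31 were not tested, 12 of the 13 tested rose and 1 fell, the mucin MUC15. In 9 of the 12 rises every HepaRG library was under 1 FPKM, so that these genes were tested through M14A alone and their count is no measure of the list. The summed level of the tested members went from 12.7 to 14.3 FPKM in HepaRG to 428 to 515 FPKM in M14A. The same filter chose the genes of this sum, so it is no measure of the list either. Lipocalin 2 (LCN2), which binds bacterial siderophores, stood at 0.133, 0.245 and 0.448 FPKM in HepaRG and 212, 303 and 299.7 FPKM in M14A (log2 change of 7.73 with SE 0.18, adjusted p = 5.8e-07). The trefoil factor TFF3, which protects mucosa, stood at 0.182, 0.112 and 0.0818 FPKM and 25.7, 24.7 and 23.2 FPKM (log2 change of 4.51 with SE 0.11, adjusted p = 5.8e-07). CDHR2, a protocadherin that links brush border microvilli, stood at 0.0496, 0.146 and 0.161 FPKM and 23.8, 26.4 and 21.8 FPKM (log2 change of 4.48 with SE 0.12, adjusted p = 8.5e-07). For these 3 genes every HepaRG library was under 0.5 FPKM. The trypsin inhibitor SPINK1 rose from 4.13 ± 0.146 to 92.7 ± 30.8 FPKM.

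Most tested junction genes rose, and most tested mesenchymal genes fell. Of 25 tested junction genes 14 (56%) rose and 3 (12%) fell (median 0.58), and 20 of 45 listed were not tested. Of 19 tested EMT factors and mesenchymal genes 4 (21.1%) rose and 11 (57.9%) fell (median -0.76), and 10 of 29 listed were not tested. Over all genes 15.3% rose and 14% fell. In 3 of the junction rises and 1 of the mesenchymal rises every HepaRG library was under 1 FPKM. In 1 of the junction falls and 3 of the mesenchymal falls every M14A library was. CEACAM1, an adhesion molecule of the bile canaliculus, stood at 0.346, 0.331 and 0.3804 FPKM in HepaRG and 13.9, 6.84 and 6.52 FPKM in M14A (log2 change of 2.83 with SE 0.26, adjusted p = 2.1e-04). The tight junction scaffold TJP3 rose from 0.401 ± 0.0681 to 8.02 ± 2.89 FPKM, and the apical polarity protein CRB3 from 3.01 ± 0.467 to 20.5 ± 7.26 FPKM. The junction falls were plakophilin 3 (PKP3), from 4.398 ± 0.0988 to 0.00551 ± 0.00954 FPKM, periplakin (PPL) and N-cadherin (CDH2). S100A4, a calcium-binding protein of motile mesenchymal cells, stood at 71.2, 67.5 and 78.6 FPKM in HepaRG and 10.1, 6.64 and 6.84 FPKM in M14A (log2 change of -3.07 with SE 0.17, adjusted p = 2.4e-05). Periostin (POSTN), a matrix protein of fibroblasts, stood at 56.7, 50.1 and 51.3 FPKM and 0.882, 4.84 and 5.23 FPKM (log2 change of -3.71 with SE 0.43, adjusted p = 6.6e-04), with library 1 the lowest. The EMT factor TWIST2 stood at 2.91, 3.104 and 3.76 FPKM in HepaRG and had 0 reads in all M14A libraries. The 4 mesenchymal rises were smooth muscle actin (ACTA2), from 1.46 ± 0.214 to 11.2 ± 2.26 FPKM, cadherin 11 (CDH11), fibronectin (FN1) and TGFBI, so the list did not fall as a whole.

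Keratins went both ways, 4 up and 5 down of 12 tested. In 1 of these rises every HepaRG library was under 1 FPKM, and in 3 of these falls every M14A library was. The rises were the stress keratin KRT6A, from 1.02 ± 0.235 to 7.88 ± 0.811 FPKM, KRT7, KRT8 and KRT18, and the falls were KRT81, KRT86, KRT80, KRT4 and KRT17. KRT81, a hair keratin, stood at 33.2, 30.6 and 36.02 FPKM in HepaRG and 0.1298, 0.0796 and 0.07903 FPKM in M14A (log2 change of -4.96 with SE 0.11, adjusted p = 5.8e-07). Its paralog KRT86 went from 6.12 ± 0.356 to 0.163 ± 0.0654 FPKM, and reads of these near-identical genes can be exchanged in counting.

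Matrix genes were divided. Of 19 collagens 7 rose and 4 fell (9 rises and 8 falls without M14A library 1, 4 to 5 and 3 to 4 without another), and 5 of the rises and 3 of the falls were of genes under 1 FPKM in all libraries of the other line. Their median was -0.04, or 0.01 under median-ratio scaling, -0.21 at equal totals and -0.18 without M14A library 1. Of 21 integrins and laminins 7 rose and 3 fell (11 rises and 5 falls without M14A library 1, 6 to 8 and 3 without another). In 1 of these rises every HepaRG library was under 1 FPKM, and in 2 of these falls every M14A library was. COL5A1, a chain of fibrillar collagen V, stood at 23.8, 26.04 and 25.3 FPKM in HepaRG and 0, 0.00915 and 0.0272 FPKM in M14A (log2 change of -4.68 with SE 0.10, adjusted p = 5.8e-07). In M14A this was 8 reads over all 3 libraries, against 17636 in HepaRG. FKBP10, a chaperone of collagen folding, fell from 27.2 ± 0.671 to 0.2598 ± 0.0279 FPKM, and the gelatinase MMP2 from 19.9 ± 0.139 to 0.06702 ± 0.0391 FPKM. The collagen rises included COL17A1, a chain of hemidesmosomes, from 0.0437 ± 0.0348 to 3.04 ± 0.151 FPKM, COL4A4, a chain of basement membranes, from 0.926 ± 0.0653 to 6.23 ± 1.03 FPKM, and COL9A2 from 0.296 ± 0.0748 to 2.68 ± 1.404 FPKM. Laminins LAMA4, LAMB1 and LAMB3 rose from 2.57 ± 0.107 to 11.7 ± 2.71, 11.8 ± 0.789 to 40.5 ± 8.02 and 12.5 ± 0.589 to 39.2 ± 5.63 FPKM. The collagen-binding integrin ITGA11 fell from 7.17 ± 0.411 to 0.0665 ± 0.0431 FPKM, and ITGA10 and LAMA3 fell as well. The other collagen falls were COL6A1, COL1A1 and COL16A1.

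Lists of metabolic genes held members that rose and members that fell. The quinone reductase NQO1, an NRF2 target, stood at 187, 184 and 190.2 FPKM in HepaRG and 0.462, 0.236 and 0.125 FPKM in M14A (log2 change of -7.21 with SE 0.14, adjusted p = 3.6e-07). No coding gene that met the naming rule fell further. Of 25 aldo-keto reductases and aldehyde or alcohol dehydrogenases 7 rose and 8 fell (9 rises and 12 falls without M14A library 1, 2 to 6 and 5 to 6 without another). AKR1C2 and CBR3, reductases of ketosteroids and other carbonyls, fell from 70.6 ± 1.104 to 25.2 ± 2.03 FPKM and 5.89 ± 0.477 to 1.76 ± 0.332 FPKM, and ALDH3A1, which clears lipid aldehydes, from 47.6 ± 2.16 to 13.9 ± 3.66 FPKM. ALDH1A1, which makes retinoic acid, rose from 75.6 ± 1.37 to 209 ± 45.4 FPKM. Of 17 genes of the pentose phosphate pathway and NADPH supply 1 rose and 2 fell (2 rises and 12 falls without M14A library 1, 1 and 0 without another). PGD, the third enzyme of the pathway, fell from 149.8 ± 6.76 to 99.3 ± 24.05 FPKM, while H6PD, which makes NADPH in the endoplasmic reticulum, rose from 13.8 ± 0.625 to 40.2 ± 6.38 FPKM.

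Of 21 cytochrome P450 genes tested 6 rose and 4 fell (median 0.00, or 0.20 without M14A library 1, with 10 rises and 7 falls without M14A library 1, 4 to 5 and 2 to 3 without another). In 3 of the 6 rises, those named next, every HepaRG library was under 1 FPKM. CYP4B1 rose from 0.531 ± 0.0517 to 3.58 ± 0.0808 FPKM, CYP11A1, the side-chain cleavage enzyme of steroid synthesis, from 0.0412 ± 0.0237 to 2.02 ± 0.511 FPKM, and the vitamin K and fatty acid hydroxylase CYP4F2 from 0.119 ± 0.0821 to 2.05 ± 0.138 FPKM, while its relative CYP4F12 fell from 3.94 ± 0.216 to 1.29 ± 0.297 FPKM, as did CYP4F3, CYP4F11 and CYP51A1. UGT1A9, a glucuronosyltransferase, fell from 10.4 ± 0.577 to 0.0945 ± 0.0822 FPKM, and other genes of the UGT1A locus share 61.2% of its exon bases. Of 34 fatty acid oxidation genes 6 rose and 4 fell (12 rises and 11 falls without M14A library 1, 3 to 6 and 3 to 4 without another). With all libraries these were 17.6% and 11.8% of the tested members, near the 15.3% and 14% over all genes. In 2 of the 4 falls every M14A library was under 1 FPKM. The fatty acid receptor CD36 stood at 11.9, 13.4 and 12.6 FPKM in HepaRG and 0.454, 0.781 and 0.817 FPKM in M14A (log2 change of -3.03 with SE 0.13, adjusted p = 7.1e-06). The short-chain acyl-CoA dehydrogenase ACADS fell from 5.05 ± 0.658 to 0.247 ± 0.1404 FPKM and the nuclear receptor PPARA from 5.06 ± 0.542 to 1.66 ± 0.215 FPKM, and PDK4, which restrains glucose oxidation, fell too, while the acyl-CoA synthetase ACSL1 rose from 104 ± 2.52 to 208 ± 7.64 FPKM. Of 15 aquaporins and genes of glycerol metabolism 4 rose and 3 fell (7 rises and 3 falls without M14A library 1, 3 and 1 to 3 without another). In 2 of the 4 rises every HepaRG library was under 1 FPKM. AQP9, the channel that takes glycerol into hepatocytes, stood at 1.297, 1.53 and 1.23 FPKM in HepaRG and 80.1, 116 and 120.2 FPKM in M14A (log2 change of 5.48 with SE 0.18, adjusted p = 2.3e-06). The phosphatidate phosphatase LPIN2 rose from 9.52 ± 0.478 to 33.6 ± 4.22 FPKM, while the lipid droplet protein PNPLA3 fell from 12.4 ± 1.01 to 3.095 ± 0.655 FPKM and GPAM, which starts glycerolipid synthesis, from 8.07 ± 0.457 to 3.73 ± 1.87 FPKM. AQP3 and GPD1 were the other rises and LPIN1 the other fall.

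Transporters of amino acids fell more than they rose. Of 25 tested 3 rose and 11 fell (median -0.69, or -0.44 without M14A library 1, with 6 rises and 14 falls without M14A library 1, 1 to 4 and 8 to 12 without another). With all 6 libraries the rises were SLC1A1, SLC7A7 and SLC43A2. In 1 of these rises every HepaRG library was under 1 FPKM, and in 3 of the 11 falls every M14A library was. SLC7A5, the light chain of the large neutral amino acid exchanger, stood at 28.7, 29.5 and 29.5 FPKM in HepaRG and 3.73, 2.504 and 1.71 FPKM in M14A (log2 change of -3.09 with SE 0.20, adjusted p = 4.4e-05). The cystine exchanger SLC7A11 stood at 29.5, 29.001 and 26.4 FPKM and 0.869, 2.47 and 2.297 FPKM (log2 change of -3.40 with SE 0.24, adjusted p = 6.1e-05). The glycine carrier SLC6A9 fell from 2.78 ± 0.3702 to 0.234 ± 0.0665 FPKM and the serine carrier SLC1A4 from 3.39 ± 0.142 to 0.539 ± 0.284 FPKM. Of 22 ABC, organic ion and bile acid transporters 8 rose and 4 fell (8 rises and 9 falls without M14A library 1, 6 to 7 and 3 to 4 without another). Without M14A library 1 falls outnumbered rises in this list, as they did over all genes. In 4 of the 8 rises every HepaRG library was under 1 FPKM, and in 1 of the falls every M14A library was. The bile acid efflux subunit SLC51B rose from 0.277 ± 0.104 to 5.49 ± 1.38 FPKM, the organic anion carrier SLCO4A1 from 0.114 ± 0.0239 to 5.14 ± 0.353 FPKM, the transporter ABCC6 from 0.647 ± 0.0674 to 4.31 ± 0.3601 FPKM and the drug efflux pump ABCB1 from 1.96 ± 0.156 to 7.33 ± 2.06 FPKM. With all libraries the falls were ABCC1, ABCC3, SLCO2B1 and SLC22A3. Of 18 metallothioneins and zinc carriers 9 were tested, and of these 5 rose and 1 fell, SLC39A10 (median 1.43, with 6 rises and 2 falls without M14A library 1, 5 and 1 without another). Metallothionein MT2A, which binds zinc and copper, stood at 267, 237 and 261 FPKM in HepaRG and 2224, 1236 and 1489 FPKM in M14A (log2 change of 2.65 with SE 0.22, adjusted p = 1.3e-04), and moved from rank 54 to rank 2 by the same measure. MT1E rose from 93.2 ± 1.01 to 516 ± 110.0 FPKM, MT1X from 6.65 ± 0.244 to 24.3 ± 9.51 FPKM and the zinc importer SLC39A8 from 8.57 ± 0.103 to 48.7 ± 20.9 FPKM. MT1F rose too. Metallothioneins are near-identical genes and can share reads.

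In the IGF axis 9 of 15 tested genes (60%) rose and 2 (13.3%) fell (median 0.59), against 15.3% and 14% over all genes. In 3 of these rises every HepaRG library was under 1 FPKM, and in the 2 falls every M14A library was. IGFBP1, a binding protein secreted by hepatocytes, stood at 0.289, 0.289 and 0.433 FPKM in HepaRG and 29.6, 10.4 and 8.67 FPKM in M14A (log2 change of 3.49 with SE 0.40, adjusted p = 6.1e-04). Library 1 was well above the other M14A libraries, and those were also far above HepaRG. IGFBP2 went the other way, at 10.4, 10.02 and 11 FPKM in HepaRG and 0.656, 0.0537 and 0.0426 FPKM in M14A (log2 change of -3.23 with SE 0.19, adjusted p = 3.0e-05), and the other fall was the RNA-binding protein IGF2BP3. IGFBP3, the main IGF carrier of plasma, rose from 3.51 ± 0.347 to 20.2 ± 6.42 FPKM, and the glycoprotein hormone STC1 from 0.397 ± 0.023003 to 3.91 ± 1.47 FPKM. Of 25 ligands and receptors of the EGF, HGF and FGF kind 8 rose and 8 fell. In 3 of these falls every M14A library was under 1 FPKM. The EGF receptor ligand AREG stood at 2.9002, 2.03 and 2.29 FPKM in HepaRG and 51.6, 33.4 and 33.2 FPKM in M14A (log2 change of 3.55 with SE 0.20, adjusted p = 2.4e-05), and its receptor EGFR rose from 6.51 ± 0.619 to 31.3 ± 4.46 FPKM. FGF21, a hepatic stress hormone, stood at 5.98, 4.53 and 5.19 FPKM and 0.0476, 0.0389 and 0.0386 FPKM (log2 change of -2.57 with SE 0.12, adjusted p = 1.2e-05), and the AXL ligand GAS6 fell from 49.99 ± 0.564 to 13.6 ± 1.03 FPKM. Of 33 TGF-beta, BMP and activin genes 6 rose and 7 fell (12 rises and 14 falls without M14A library 1, 3 to 6 and 2 to 4 without another). With all libraries these were 18.2% and 21.2% of the tested members, against 15.3% and 14% over all genes. In 1 of the rises every HepaRG library was under 1 FPKM, and in 3 of the falls every M14A library was. GDF15, a stress-induced member, stood at 38.8, 33.3 and 33.3 FPKM and 605, 299 and 261 FPKM (log2 change of 3.33 with SE 0.30, adjusted p = 2.1e-04), with library 1 the highest, and the activin chain INHBE fell from 9.296 ± 0.402 to 0.768 ± 0.127 FPKM. LTBP1, which stores latent TGF-beta in the matrix, fell from 8.14 ± 0.225 to 2.05 ± 0.294 FPKM, and the activin receptor ACVR1B rose from 5.38 ± 0.343 to 11.7 ± 3.06 FPKM. Of 28 Wnt and Notch genes 5 rose and 5 fell (8 rises and 14 falls without M14A library 1, 4 to 7 and 3 to 5 without another). The rises and the falls with all libraries were each 17.9% of the tested members, near the 15.3% and 14% over all genes. In 3 of the 5 falls every M14A library was under 1 FPKM. The ligands WNT6 and WNT7B fell, WNT6 from 4.12 ± 0.208 FPKM to 0 reads and WNT7B from 3.41 ± 0.176 to 0.514 ± 0.319 FPKM. The receptor FZD8 rose from 3.49 ± 0.152 to 10.02 ± 1.79 FPKM, and TBX3, a Wnt target and T-box repressor, fell from 7.87 ± 0.191 to 3.11 ± 0.655 FPKM. The other rises were FZD4, FZD5, NOTCH1 and DKK1, and the other falls AXIN2 and HEY1.

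Of 26 G1 regulators and senescence genes 4 rose and 7 fell (4 rises and 15 falls without M14A library 1, 3 and 4 to 6 without another). The inhibitor CDKN1A (p21) stood at 33.3, 33.5 and 35.3 FPKM in HepaRG and 421, 259 and 254 FPKM in M14A (log2 change of 3.12 with SE 0.21, adjusted p = 5.1e-05). CDKN2B, an inhibitor of CDK4, and the repressor E2F7 were among the other rises. CDKN2C fell from 23.4 ± 0.118 to 10.3 ± 2.88 FPKM and the telomerase gene TERT from 2.94 ± 0.127 to 0.624 ± 0.244 FPKM.

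Other coding genes among the 20 largest rises and 20 largest falls came from no list. PDZK1IP1, a small membrane protein of epithelia, stood at 13.5, 11.2 and 13.1 FPKM in HepaRG and 601, 585 and 543 FPKM in M14A (log2 change of 5.41 with SE 0.13, adjusted p = 5.8e-07). PTGES, the inducible synthase of prostaglandin E2, stood at 4.12, 3.44 and 3.68 FPKM and 98.2, 84.3 and 80.6 FPKM (log2 change of 4.22 with SE 0.13, adjusted p = 2.1e-06), and the proteolipid GPM6B at 2.51, 2.91 and 2.78 FPKM and 55.5, 77.3 and 81.6 FPKM (log2 change of 4.26 with SE 0.17, adjusted p = 5.1e-06). Enteropeptidase (TMPRSS15), the intestinal activator of trypsinogen, stood at 24.04, 24.2 and 23.5 FPKM in HepaRG and 0.118, 0.145 and 0.02401 FPKM in M14A (log2 change of -4.51 with SE 0.11, adjusted p = 5.8e-07), against the direction of the enterocyte list. CD24, a surface glycoprotein of progenitor cells, stood at 19.6, 18.02 and 18.8 FPKM and 0.869, 0.3803 and 0.279 FPKM (log2 change of -3.73 with SE 0.16, adjusted p = 7.2e-06). CHI3L1, a secreted chitinase-like lectin, fell from 19.3 ± 1.89 to 1.27 ± 0.415 FPKM, and the sulfotransferase CHST1 from 19.3 ± 0.446 to 0.0643 ± 0.0314 FPKM. The Wnt inhibitor relative APCDD1L fell from 28.3 ± 0.615 to 0.636 ± 0.1003 FPKM, the adhesion molecule AMIGO2 from 18.1 ± 1.11 to 1.06 ± 0.0723 FPKM, the scavenger receptor SCARA3 from 18.4 ± 0.799 to 0.129 ± 0.224 FPKM and the cancer-testis gene CT55 from 7.77 ± 0.929 to 0.00978 ± 0.0169 FPKM.

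Some genes were at or near 0 in one line and measurable in the other. In 86 genes, 53 of them protein-coding, every HepaRG library was under 0.1 FPKM and every M14A library at 1 FPKM or more, and in 78 genes, 58 of them coding, the reverse was seen. The levels chose these genes, so no test is given for their number. NDN, an imprinted gene of chromosome 15, had 0 reads in HepaRG and stood at 22.5, 19.9 and 18.03 FPKM in M14A. The cancer-testis gene MAGEB1 on the X chromosome had 0 reads in HepaRG and stood at 49.9, 33.1 and 32.8 FPKM in M14A, and MAGEC2 on the same chromosome stood at 65.7, 66.6 and 65.2 FPKM in HepaRG and 0.0943, 0.0772 and 0.05104 FPKM in M14A. Over the 23 cancer-testis genes tested 10 rose and 3 fell (13 rises and 6 falls without M14A library 1, 6 to 10 and 3 to 4 without another), with PAGE1 and SPANXB1 beside MAGEC2 as the falls, and members of this family went from near 0 to measurable levels and the reverse. In 6 of these rises every HepaRG library was under 1 FPKM, and in 1 of the falls every M14A library was, so the filter shaped these counts. Of the HOX genes, which mark position along the body axis, HOXD9, HOXD10 and HOXD11 had 0 reads in all M14A libraries and means of 1.804 ± 0.0917, 4.21 ± 0.187 and 1.24 ± 0.113 FPKM in HepaRG, and HOXC13 rose from 0.0326 ± 0.0286 to 1.46 ± 0.171 FPKM. Of 10 HOX genes tested 3 rose, namely HOXC13, HOXB13 and HOXC6, and 5 fell, with HOXB7 and HOXB9 beside those named (3 rises and 5 falls without M14A library 1, 1 to 3 and 3 to 4 without another). In 2 of the rises every HepaRG library was under 1 FPKM, and in 4 of the falls every M14A library was. The filter all but fixed the direction of these, so the counts are no measure of the HOX genes. The long noncoding RNA AC079466.1 rose from 0.0985 ± 0.0404 to 97.2 ± 8.86 FPKM, UCA1 from 1.97 ± 0.146 to 50.7 ± 2.17 FPKM and AC004593.1 from 0.0363 ± 0.0629 to 20.4 ± 11.6 FPKM, while LINC01151 fell from 7.85 ± 0.868 to 0.185 ± 0.0789 FPKM, MIR548XHG from 6.604 ± 0.343 to 0.192 ± 0.167 FPKM and AC127496.2 from 10.5 ± 2.19 FPKM to 0 reads.

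Genes that fell or rose together were also found as neighbours along chromosomes. Protein-coding genes with a mean of at least 5 FPKM were placed in windows of 5 Mb (GRCh38), and 205 windows held at least 10 of them. The median log2 fold change of a window lay within 0.3 of 0 in 181 windows, below -0.5 in 5 and above 0.5 in 3. The 8 windows past 0.5 formed 4 stretches, on chromosomes 22, 7, 17 and 5. The windows were drawn after the values had been seen, so they are a description.

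On chromosome 22, all 4 windows from 35 Mb to the end of the chromosome were low. Of 90 genes there, from TOM1 to ARSA, 70 fell and 6 rose, with a median log2 fold change of -0.82, while of the 65 genes before, from IL17RA to FBXO7, 3 fell and 9 rose (median 0.09). The median ratio of a gene to its HepaRG mean was 0.665, 0.489 and 0.472 in M14A libraries 1, 2 and 3 over the stretch, against 1.19, 0.974 and 0.956 over genes outside the 4 stretches, and all 3 M14A libraries were low on the stretch. The printed M14A libraries gave 0.710 and 0.536 for the same genes, against 1.12 and 1.06 outside. Among these genes the last before the step was FBXO7, at 11, 11.1 and 10.9 FPKM in HepaRG and 13.4, 9.87 and 9.61 FPKM in M14A, and the first call after it was HMOX1, the heme oxygenase, at 41.9, 37.7 and 44.8 FPKM and 11.7, 7.28 and 6.95 FPKM (log2 change of -2.17 with SE 0.20, adjusted p = 2.2e-04). Between them the less abundant TIMP3, an inhibitor of metalloproteinases, fell from 5.305 ± 0.614 to 0.594 ± 0.252 FPKM. The longest run of neighbouring tested coding genes called in one direction lay here too, 24 genes from TAB1 to XRCC6 that all fell. Counting all tested genes, noncoding ones included, 124 of 178 in the stretch fell, which is 6.36% of all genes that fell.

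Regulators with targets elsewhere in the genome lie on this stretch. The stress factor ATF4 stood at 127, 123 and 127 FPKM in HepaRG and 63.1, 45.2 and 42.5 FPKM in M14A (log2 change of -1.33 with SE 0.17, adjusted p = 0.0011), the acetyltransferase EP300 at 7.52, 8.75 and 8.47 FPKM and 4.71, 4.13 and 3.88 FPKM, and the sterol factor SREBF2 at 41.8, 43.6 and 43.4 FPKM and 33.99, 22.6 and 21.7 FPKM. PPARA, PNPLA3, WNT7B, APOL3, APOL6 and PDGFB, members of the lists above, also lie there, and their falls are counted in that of the stretch. The non-muscle myosin gene MYH9 fell further than the median of the stretch, from 157 ± 6.203 to 53.7 ± 9.33 FPKM, and APOBEC3B, a cytidine deaminase, stood at 6.67, 6.93 and 6.98 FPKM in HepaRG and had 0 reads in M14A. APOL1 and APOL2 rose within it.

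On the first 10 Mb of chromosome 17, 48 of 67 genes rose and 0 fell, with a median log2 fold change of 0.78, against 35 up and 35 down of 337 genes on the rest of the chromosome (median 0.00). The median ratio to HepaRG was 2.28, 1.67 and 1.55 in the M14A libraries. CXCL16, the junction gene CLDN7 and the tetraspanin relative TM4SF5 lie on this stretch. Profilin (PFN1), an actin monomer carrier, stood at 197, 187 and 208 FPKM in HepaRG and 379, 284 and 253 FPKM in M14A (log2 change of 0.61 with SE 0.17, adjusted p = 0.034). On chromosome 7 between 5 and 10 Mb 13 of 19 genes fell, 0 rose and all 19 had a value below 0 (median -0.69). It includes ACTB, beta-actin, often used as a reference gene, which stood at 1952, 1836 and 2059.8 FPKM in HepaRG and 1534, 1028 and 950.5 FPKM in M14A (log2 change of -0.77 with SE 0.19, adjusted p = 0.022). Between 140 and 145 Mb of chromosome 5, 17 of 24 genes rose and 0 fell (median 0.65). There protocadherin genes of the alpha and beta clusters rose together. Those of the alpha cluster share exons, so their values are not independent. These are RNA levels relative to other genes of the library, no DNA was measured in the files used here, and the cause of the stretches was not tested.

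**Figure D3:**
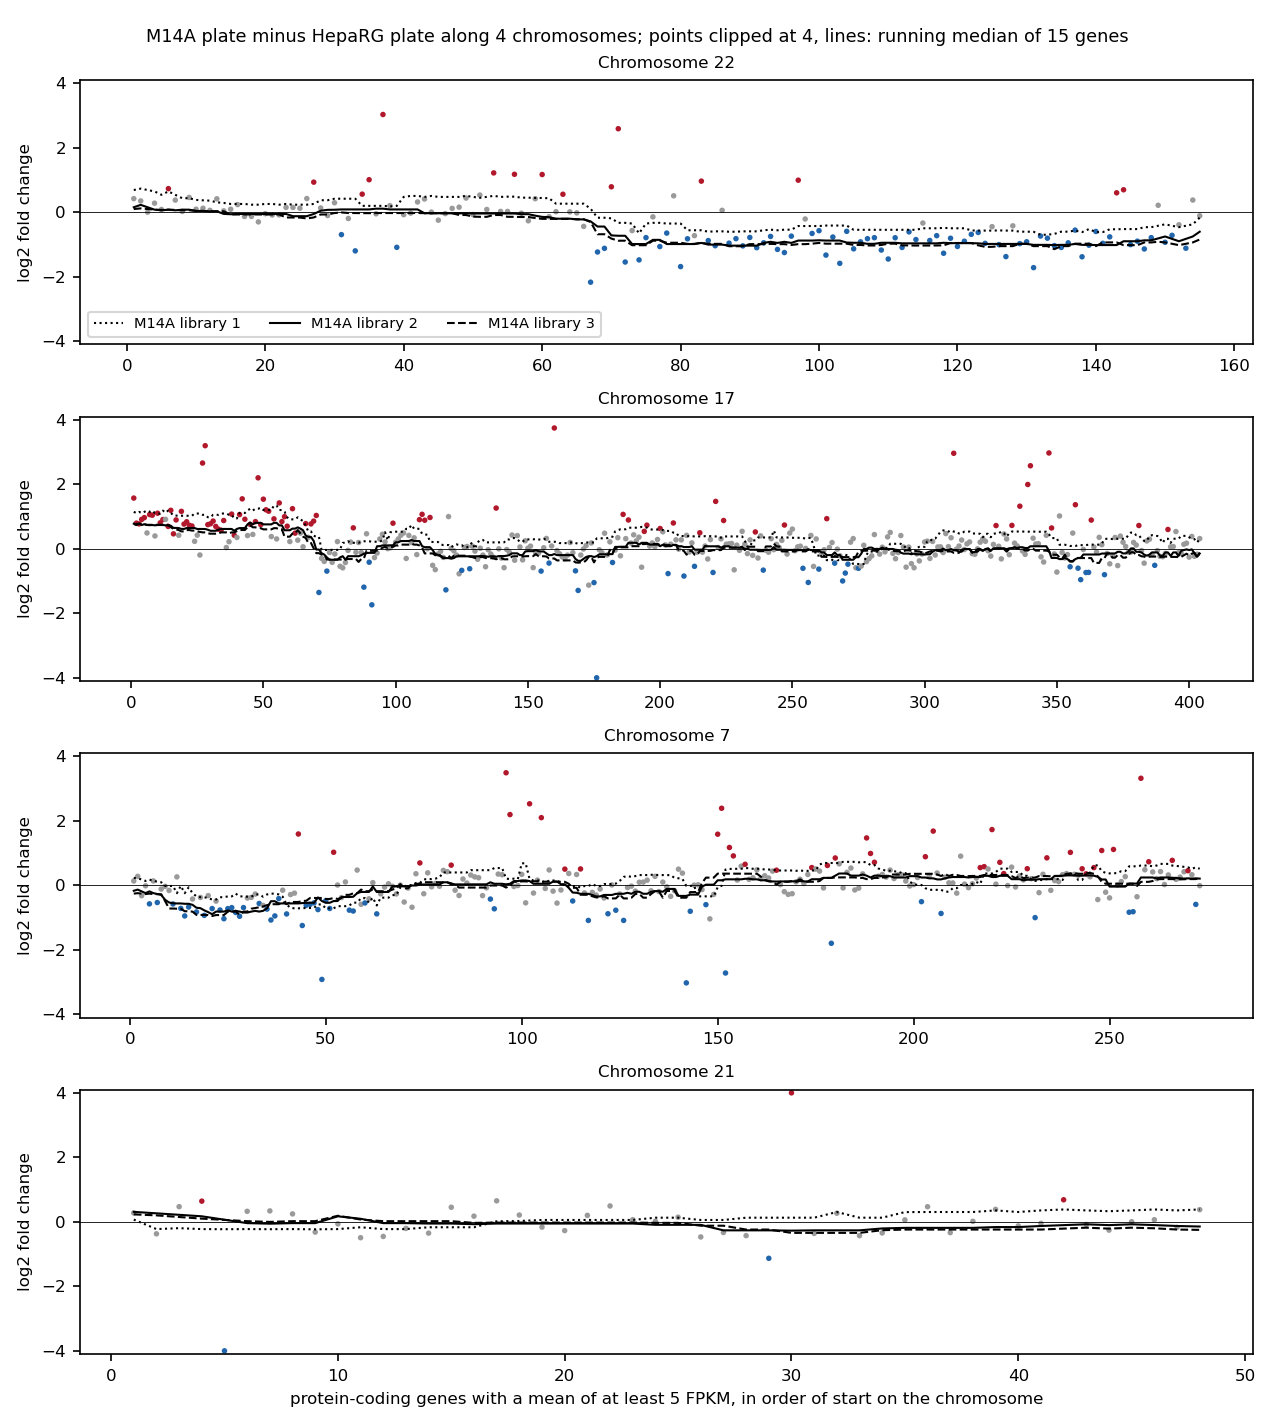
Log2 fold change (vertical axis, M14A minus HepaRG, points clipped at 4) of coding genes with a mean of at least 5 FPKM in gene order (horizontal axis) along chromosomes 22, 17, 7 and 21; points are red where called higher, blue where called lower and grey otherwise, and lines are running medians of 15 genes in M14A library 1 (dotted), 2 (solid) and 3 (dashed). All 3 lines step down on chromosome 22 after FBXO7 and stay below 0 to the end, and they stand above 0 over the first 67 genes of chromosome 17; chromosome 21, which has no such stretch, is shown for comparison.

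A smaller run lay on chromosome 1, where 9 neighbouring tested genes of the epidermal differentiation complex rose, namely S100A11, HRNR, FLG, LCE3D, LCE1E, LCE1C, LCE1B, IVL and S100A9. All but S100A11 and S100A9 were under 0.5 FPKM in every HepaRG library and were tested through M14A alone, so the unbroken run follows in part from the filter. Involucrin (IVL), a protein of the cornified envelope, stood at 0, 0 and 0.0222 FPKM in HepaRG and 2.21, 5.76 and 4.39 FPKM in M14A (log2 change of 2.28 with SE 0.26, adjusted p = 5.8e-04). S100A9, a subunit of calprotectin, stood at 3.96, 2.71 and 3.56 FPKM and 15.4, 25.03 and 19.4 FPKM (log2 change of 2.23 with SE 0.20, adjusted p = 1.9e-04). On chromosome 19 a run of 8 genes from CRB3 to TRIP10, with C3 and the tumour necrosis factor relatives TNFSF9, CD70 and TNFSF14 among them, rose as well.

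Within M14A, log2(FPKM + 1) of library 1 was at least 1 above the mean of the others in 102 genes and at least 1 below it in 511. This was out of 13445 genes in which FPKM + 1 of libraries 2 and 3 lay within 1.5 times of each other. FPKM totals were 350931 in library 1 and 278335 and 272290 in libraries 2 and 3, and values were not scaled to equal totals here. The FPKM denominator per recovered read was 0.968 in library 1, 1.15 and 1.19 in libraries 2 and 3, and 1.18 to 1.20 in HepaRG. A gene with the same share of recovered reads thus has a higher FPKM in library 1. KRT19, a biliary keratin, stood at 41.2, 41.5 and 45.4 FPKM in HepaRG and 49.02, 11.6 and 11.6 FPKM in M14A, so that library 1 was above all HepaRG libraries and the others below them, and the difference did not pass the test. NDRG1, a gene of hypoxia and stress, stood at 46.6, 16.8 and 15.3 FPKM in M14A, and the antimicrobial glycoprotein OLFM4 at 0.713, 8.75 and 7.88 FPKM. The deviation of library 1 moved with gene length. In 5 classes of coding genes by exon length, its median difference from the other two on the log2(FPKM + 1) scale was 0.37 in the shortest class, then 0.27, 0.17 and 0.06, and -0.14 in the longest, where exon length was 8189 bases or more. In the HepaRG libraries the same medians lay between -0.06 and 0.05. The share of genes called higher fell from 21.4% in the shortest class to 10.05% in the longest, and the median log2 fold change from 0.10 to -0.18, or from 0.01 to -0.12 without library 1. The part of library 1 or of RNA length in single results was not tested beyond the values given with and without that library.

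**Figure D4:**
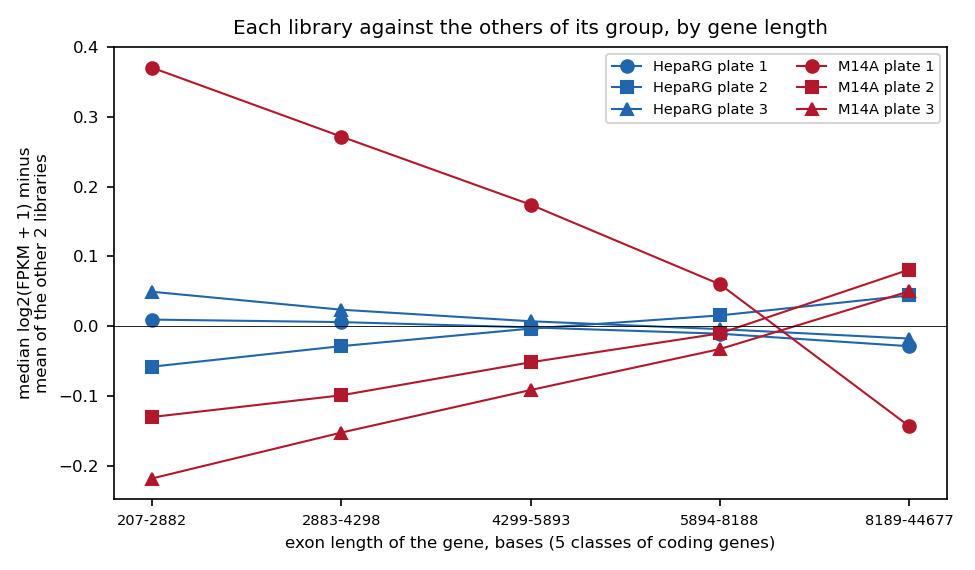
Median difference of each flask library from the mean of the other two of its group (vertical axis, log2(FPKM + 1)) in 5 classes of coding genes by exon length in bases (horizontal axis), red for M14A and blue for HepaRG, with symbols for library 1, 2 and 3. M14A library 1 goes from 0.37 in the shortest class to -0.14 in the longest.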

How the data were processed

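The deposited table gives FPKM per gene for 8 libraries, of which the 6 flask libraries were used. RNA was taken up in TRIzol and made into libraries with a NEBNext Ultra kit, per the labels' protocols. The submitters' processing notes name HISAT2 (2.0.5) and featureCounts (1.5.0-p3); strand setting and genome build are unknown here. Coordinates and exon lengths of all 58735 genes equal those of GENCODE 29 on GRCh38. No column of per-sample values was left without a sample.

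Reads were recovered as FPKM times gene length over the smallest step of each library; values came out whole within 0.01 for 99.94 to 99.98%, which gave 15632154 to 19148262 reads. Genes at 1 FPKM or more in 2 or more of the 6 libraries entered a fit of log2(FPKM + 1) by limma (3.58.1, R 4.3.3; eBayes with trend, 2 group means, two-sided). Calls needed an adjusted p (Benjamini-Hochberg) under 0.05. In simulated reads with 3 libraries a group 46% of genes changed 2-fold and 96.9% of those changed 4-fold were called, beside 13 genes with no change, out of 13538. The simulation set a dispersion of 0.04 in all libraries, not estimated from the data, and changed 200 genes. It held no library that stood apart as M14A library 1 does, so its rates need not hold for these data.

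The comparison and the gene lists were chosen with earlier results of these data known. Named genes are HNF4A and FOXM1, the 20 largest rises and falls among called coding genes and the 5 largest among called long noncoding genes whose groups did not overlap, and up to 4 called members of each list with the largest change; not all genes that the rule selects are described. Other genes, the windows and the length classes were chosen after their values were seen. Promoters were matched by symbol. Alternatives were other pseudocounts, filters and scalings, voom on the recovered reads, a threshold of 0.01, the replicate number as a block and each library left out. Same-numbered libraries of the 2 lines did not deviate together.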

Additional observations from a re-analysis of the deposited data

How the results depend on the processing

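With a filter at 5 FPKM, 1223 genes were higher and 875 lower (573 and 309 at least 2-fold), fewer because only 7501 genes were tested. A threshold of 0.01 gave 1278 and 935, and equal FPKM totals 3257 lower genes. With pseudocounts of 0.1 and 0.01 and with voom on the recovered reads, 1027, 1015 and 1106 genes were lower at least 2-fold in place of 588, since a smaller pseudocount shrinks low genes less. Leaving out one library at a time gave 1339 to 3484 higher and 1032 to 4452 lower genes, the lowest counts without HepaRG replicate 1 and the highest without M14A replicate 1. A fit with the replicate block gave 1864 higher and 1730 lower genes. Deviations of same-numbered libraries from their group means correlated at -0.08, 0.08 and -0.16. With 3 libraries a group this does not settle whether the numbers pair the samples. Of 152 genes selected for naming, 143 kept their side of the threshold under all alternatives run and none reversed. Most of these were selected as large called changes, and 151 were called, so this is no measure of stability over all genes. Low depth limits genes near 0: 1 read of a gene of 1 kb equals 0.0435 to 0.0626 FPKM.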

Other observations

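Calls by gene class are given as shares, with no test between classes. Of 660 lincRNA genes tested 172 rose and 123 fell, which is 44.7% called, and of 572 antisense genes 116 rose and 86 fell (35.3%), against 28.5% of 11144 protein-coding genes. Antisense genes share ground with coding genes, and without a stated strand setting their reads cannot be told apart.

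The imprinted genes NDN and PEG10 went in opposite directions. PEG10, a gene derived from a retrotransposon, stood at 313, 332 and 316 FPKM in HepaRG and 44.9, 48.9 and 49.6 FPKM in M14A (log2 change of -2.72 with SE 0.12, adjusted p = 7.4e-06), and was chosen after its values were seen. Among the most abundant nuclear coding genes, the ferritin light chain FTL was first in both lines and fell from 7260.5 ± 605 to 4792 ± 845 FPKM, while PDZK1IP1 moved from rank 3111 to rank 19 and C3 from rank 247 to rank 29.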
